A study of Mus musculus with 4 samples.

Results

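CD8αα αβ T cells are intestinal intraepithelial lymphocytes that carry the CD8 alpha chain without the beta chain and an αβ T cell receptor. Here they were gated by transcripts: a barcode was a member when it held at least 1 UMI (unique molecular identifier, 1 captured transcript) summed over Cd3d, Cd3e and Cd3g, at least 1 of Cd8a, at least 1 summed over Trac, Trbc1 and Trbc2, and 0 of Cd8b1, Trdc, Cd79a and Lyz2. The rule found 2836 members among 14378 barcodes: 464 of 3171 in small intestine, 1011 of 4244 in cecum, 1355 of 3764 in colon and 6 of 3199 in stomach. The series holds 1 droplet library (10x Genomics 3′ chemistry, version 2) for each of these tissues. All 4 came from uninfected C57BL/6 mice and from cells sorted as CD45.2+, labelled as live CD45+ cells; the labels used here give neither the age or sex of the mice nor how many were pooled, and the extraction text names colons in every record, so the tissue labels were used. With 1 library for each tissue, tissue, animal and library cannot be told apart, and no p-value was computed between tissues.

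In mice, natural intraepithelial lymphocytes of this kind arise from thymic precursors that receive strong receptor signals, lose CD4 and the CD8 beta chain, and settle in the gut epithelium. CD8αα on these cells binds the class I-like molecule TL on epithelial cells and tunes receptor signals rather than serving as a classical co-receptor. They are known for NK-type receptors, for signalling adaptors otherwise used by innate cells such as Fcer1g and Tyrobp, and for low levels of Cd5, Cd2, Cd28 and Thy1; induced CD8αα cells, which come from conventional T cells, keep more of those molecules.

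The members' summed depth was 1166478 UMIs in small intestine, 2088404 in cecum, 4762573 in colon and 18120 in stomach. The median was 2264, 1818, 3145 and 2378.5 UMIs in a member of these 4 libraries. Levels are given as CPM, the UMIs of a gene scaled by all UMIs of the members of a library, and ranges in parentheses are 95% intervals that cover counting error only. The markers of the label were present: 2078 CPM in small intestine, 1063 CPM in cecum and 1339 CPM in colon for Cd8a, 1009 CPM in small intestine, 1068 CPM in cecum and 1116 CPM in colon for Trac, and 2235 CPM in small intestine, 2951 CPM in cecum and 3029 CPM in colon for Trbc2; these genes defined the gate, so the values are a description. Itgae, the alpha chain of the CD103 integrin that binds E-cadherin on epithelium and the 1 marker outside the gate, stood at 931 CPM in small intestine, 208 CPM in cecum and 273 CPM in colon.

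A gate on few transcripts has soft edges. Exactly 1 Cd8a UMI placed 12.9% of small intestine members, 43.1% of cecum members and 20.1% of colon members inside it. Exactly 1 Cd8b1 UMI kept out 33, 60 and 74 barcodes of these libraries, and exactly 1 Trdc UMI kept out 157, 35 and 44. At least 1 UMI of a gamma chain gene or a delta V segment, which the gate did not use, was found in 61.4% of small intestine members, 46.4% of cecum members and 75.9% of colon members. The corresponding shares in the γδ gate (CD3 barcodes with a Trdc UMI) were 89.4%, 72% and 93.3%. The transcripts were not of 1 kind: Trgv2 was seen in 25.9%, 17.3% and 45.5% of members, against 29.4%, 17.3% and 45.6% of the γδ gate, whereas Tcrg-C1 was seen in 17.2%, 11.8% and 24.2% of members, against 54.4%, 33.9% and 57.7% of the γδ gate. The other αβ gates also held them: Trgv2 was seen in 13.1%, 17.6% and 31.3% of CD8αβ cells (a Cd8b1 UMI) and in 6.67%, 12.4% and 27.1% of double-negative αβ cells (no Cd8a, Cd8b1 or Cd4 UMI), and Tcrg-C1 in 5.05%, 9.15% and 18.7% of CD8αβ cells and 3.33%, 5.63% and 8.94% of double-negative cells. Trdv5, a delta V segment, was seen in 1.08%, 0% and 0.148% of members, against 14.7%, 9.73% and 14.2% of the γδ gate. The gap was narrower for Trdv1, another delta V segment, with 1.29%, 1.19% and 1.7% of members, against 4.05%, 1.95% and 3.17% of the γδ gate. No barcode of the B gate (0 CD3 UMIs and at least 2 of Cd79a) held a Trgv2, Tcrg-C1 or Trdv5 UMI. Other genes of the set were not fully absent there. The B gate held 1 Tcrg-C2 and 2 Tcrg-C3 UMIs in small intestine, 1 each of Tcrg-C4 and Tcrg-V4 in cecum, and 1 of Trdv2-1 in colon. The γδ gate had soft edges too. In small intestine, cecum and colon, exactly 1 Trdc UMI placed 12.3%, 24.9% and 10.9% of its cells inside it. A Trac UMI was held by 58.8%, 50.8% and 65% of its cells. How many members are γδ T cells whose Trdc was not captured, and how many are CD8αβ cells whose Cd8b1 was not captured, was not tested. How many cells of the γδ gate carry an αβ receptor was not tested either. The double-negative gate rests on 0 Cd8a UMIs. Thinning each barcode to 1000 UMIs raised its share of CD3 barcodes in small intestine, cecum and colon. The shares were 6.03%, 49.6% and 26% at full depth and 13%, 59.7% and 41.3% after thinning. How many of its cells are CD8αα cells whose Cd8a was not captured was not tested.

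Members made up 18.7% (17.1 to 20.2%) of CD3 barcodes in small intestine, 29.4% (27.9 to 31%) in cecum, 40.4% (38.8 to 42.1%) in colon and 1.88% (0.691 to 4.04%) in stomach. After each barcode was thinned to 1000 UMIs the shares were 24.6% (22.9 to 26.3%), 22.6% (21.2 to 24.1%), 32.4% (30.8 to 34%) and 3.32% (1.6 to 6.02%), so cecum and small intestine changed places. When barcodes with a gamma chain or delta V UMI were left out, the shares were 7.2, 15.8 and 9.73% of CD3 barcodes of small intestine, cecum and colon. No full order of the 3 intestinal tissues held under all 3 counts: small intestine lay below colon in each, but the place of cecum changed. No order is read from them. The share in stomach stayed below those of the other tissues at both depths.

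**Figure D1:**
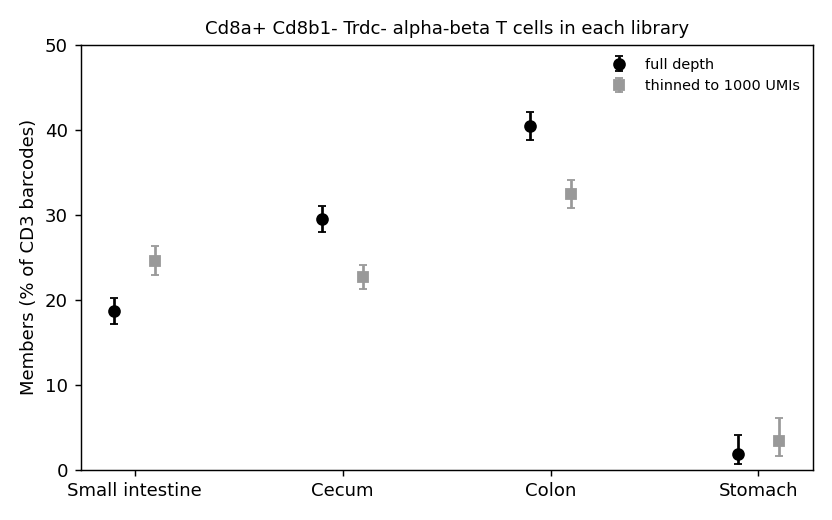
Share of CD3 barcodes (percent, vertical axis) that met the gate in each library, at full depth (black circles) and after thinning each barcode to 1000 UMIs (grey squares), with 95% binomial intervals. Thinning raised the small intestine share to 24.6%, against 18.7% at full depth, and lowered those of cecum and colon.

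Gene levels were next compared between the members of the 3 intestinal tissues, which asks how cells of 1 gate differ along the gut. A gene was tested when it reached 50 CPM in either library with 20 UMIs in all, and was called when the levels differed at least 2-fold. Between small intestine and colon, 263 of 4537 genes (5.8%) were called, 153 higher (3.37%) and 110 lower (2.42%) in small intestine. Between small intestine and cecum, 349 of 4633 (7.53%) were called, 198 higher (4.27%) and 151 lower (3.26%). Both comparisons share the small intestine library. Between cecum and colon, 110 of 4366 (2.52%) were called, 29 higher (0.664%) and 81 lower (1.86%) in cecum. The median log2 ratio over all tested genes was -0.02, -0.08 and 0.07 in the 3 comparisons, in that order.

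Cytotoxic granule genes come first, since Gzma had the highest ratio of the named genes in both comparisons of small intestine. Gzma, a granule serine protease, stood at 26050.2 CPM in small intestine, 102 CPM in cecum and 468 CPM in colon, from 313 of 464, 7 of 1011 and 56 of 1355 members with a UMI. It was 55.7-fold (53.3 to 58.1) higher in small intestine than in colon and 255-fold (223 to 294) higher than in cecum. After thinning, a Gzma UMI was held by 61.9% of small intestine members, 0.598% of cecum members and 2.21% of colon members, against 3.45%, 0.262% and 1.2% of the B gate, whose median depth was 11412, 1260 and 1959 UMIs. Free RNA gives UMIs in cells that do not express a gene, and B cells serve as a rough guide to it in cecum and colon, where the Gzma shares were low in members and B gate alike. In small intestine 127 of the 174 B gate barcodes also met the plasma cell gate and were several times deeper than members, so thinning lowers what free RNA they show and their shares are no measure of it for members. Gzma lay in few cells of cecum and colon: 1 member held 92 of the 213 cecum UMIs and 1 held 434 of the 2229 colon UMIs. Without those cells, a setting chosen after the values were seen, small intestine was 69.1-fold (65.9 to 72.5) higher than colon and 449.6-fold (376 to 542) higher than cecum. In small intestine the transcript was spread over many cells, with a median of 47 UMIs per member and 33.3% of its UMIs in the 47 members that held most. The contrast was not particular to members. In small intestine, cecum and colon, thinned Gzma shares were 53.5%, 4.96% and 2.68% of CD8αβ cells. They were 42%, 0.78% and 1.27% of double-negative cells and 73.3%, 13.4% and 23.4% of γδ gate cells. Gzmb, the granule protease that cleaves caspases, was graded instead: 3234 CPM in small intestine, 132 CPM in cecum and 717 CPM in colon, with a UMI in 54.1%, 5.68% and 21.5% of thinned members, against 1.72%, 0.262% and 1.8% of the B gate. Its ratio was 4.51-fold (4.3 to 4.72) for small intestine over colon and 24.6-fold (21.7 to 27.9) for small intestine over cecum, and it was 5.45-fold (4.82 to 6.18) lower in cecum than in colon. Of the 10 tested genes on the granule list, 3 were called higher and 0 lower in small intestine than in colon (Gzma, Gzmb and the cystatin Cst7), with a median log2 ratio of 0.49; against cecum 4 of 10 were higher and 0 lower, with a median of 0.94. Nkg7, a granule membrane protein, was below 2-fold, at 2093 CPM in small intestine, 1087 CPM in cecum and 1455 CPM in colon. Prf1, perforin, was under the level limit, at 32.6 CPM in small intestine, 10.1 CPM in cecum and 7.56 CPM in colon.

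The upstream sequences of 3 of these genes are shown because the members of small intestine held their transcripts at several times the level of the other tissues; each is the 250 bases before the RefSeq start in GRCm38.p6, written 5′ to 3′ on the gene's strand, with matches to the RUNX core TGTGGT, searched on both strands, in capitals.
Gzma (chr13:113100982-113101231, - strand): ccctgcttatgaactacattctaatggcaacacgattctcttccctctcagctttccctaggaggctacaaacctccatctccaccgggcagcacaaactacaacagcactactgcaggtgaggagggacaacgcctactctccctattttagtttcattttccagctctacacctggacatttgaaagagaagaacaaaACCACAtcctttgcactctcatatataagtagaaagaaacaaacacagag
Gzmb (chr14:56262335-56262584, - strand): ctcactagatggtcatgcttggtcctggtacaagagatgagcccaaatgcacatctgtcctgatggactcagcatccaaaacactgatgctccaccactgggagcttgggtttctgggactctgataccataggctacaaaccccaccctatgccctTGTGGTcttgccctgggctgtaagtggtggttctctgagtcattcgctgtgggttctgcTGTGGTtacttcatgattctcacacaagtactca
Ccr9 (chr9:123766961-123767210, + strand): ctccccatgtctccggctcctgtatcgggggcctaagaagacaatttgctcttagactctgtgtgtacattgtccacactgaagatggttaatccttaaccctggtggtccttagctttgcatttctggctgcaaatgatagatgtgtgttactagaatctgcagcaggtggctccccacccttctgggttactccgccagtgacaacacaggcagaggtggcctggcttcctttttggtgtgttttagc
The window held 1 match at Gzma, 2 at Gzmb and 0 at Ccr9, and 14.2% of the 27025 mouse genes with such a window held at least 1. A T-box core, GGTGTGA, matched none of the 3 windows and 3.31% of all windows. A match is a run of letters and was not tied to binding in these data.

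Genes of homing and adhesion followed. Ccr9, the receptor for the small intestinal chemokine CCL25 (chromosome 9, 123767211 to 123783457), stood at 310.3 CPM in small intestine, 77.1 CPM in cecum and 50.6 CPM in colon, 6.13-fold (5.2 to 7.25) higher in small intestine than in colon and 4.03-fold (3.33 to 4.88) higher than in cecum. The thinned share with a Ccr9 UMI was 23.9% in small intestine members against 12.1% in the B gate of that library, most of which are plasma cells, a type also known to express Ccr9. In cecum and colon it was 7.28% and 4.13% in members, against 1.05% and 0.599% in the B gate. Ccr9 and Runx2 also mark plasmacytoid dendritic cells, whose lectin Siglech had a UMI in 4 small intestine members; without those members the log2 ratios over colon were 2.65 for Ccr9 and 2.82 for Runx2. Itgae (chromosome 11, 73090505 to 73147449) was 3.41-fold (3.14 to 3.7) and 4.48-fold (4.0 to 5.02) higher in small intestine than in colon and cecum, and its B gate shares were 0%, 0.262% and 0%. Both genes were also seen most often in small intestine in the other T cell gates. Across small intestine, cecum and colon, thinned Itgae shares were 45.5%, 12.8% and 23.5% of CD8αβ cells and 39.3%, 10.7% and 10.3% of double-negative cells. For Ccr9 they were 34.3%, 11.3% and 3.36%, and 25.3%, 2.64% and 1.84%. In the γδ gate they were 63.3%, 22.3% and 28.3% for Itgae and 29.4%, 10.9% and 10.5% for Ccr9. Itgad, the CD11d integrin chain, stood at 93.4 CPM in small intestine, 9.58 CPM in cecum and 8.61 CPM in colon, and Itgax, the CD11c chain, at 75.4 CPM in small intestine, 3.35 CPM in cecum and 4.62 CPM in colon. Of 10 tested integrins, 3 were called higher and 0 lower in small intestine than in colon, and 4 and 0 against cecum, whereas 0 of 8 were called between cecum and colon. Cxcr6, a chemokine receptor of tissue-resident lymphocytes, was 2.26-fold (1.93 to 2.65) higher than in colon. Gpr15, a receptor for homing to the large intestine, was scarce, with 1, 18 and 30 UMIs in small intestine, cecum and colon members.

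Chemokine transcripts pointed in both directions. Ccl5 (RANTES) stood at 24230.2 CPM in small intestine, 3359.5 CPM in cecum and 4479.9 CPM in colon, 5.41-fold (5.31 to 5.51) higher in small intestine than in colon, and Ccl4 at 654 CPM in small intestine, 71.8 CPM in cecum and 37.8 CPM in colon, 17.3-fold (14.7 to 20.5) higher. Xcl1, the lymphotactin that draws cross-presenting dendritic cells, ran the other way, at 748 CPM in small intestine, 1036 CPM in cecum and 1883 CPM in colon, and was 2.52-fold (2.35 to 2.7) lower in small intestine than in colon. Ifng, interferon gamma, stood at 34.3 CPM in small intestine, 59.4 CPM in cecum and 24.6 CPM in colon, and was called higher in cecum than in colon, with a log2 ratio of 0.76, under 2-fold, once the cecum cell with most Ifng UMIs was left out. Ccl3 was also above 2-fold in small intestine, but its level was under 20% of that in another cell class of the same library and it was set apart as possible free RNA.

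**Figure D2:**
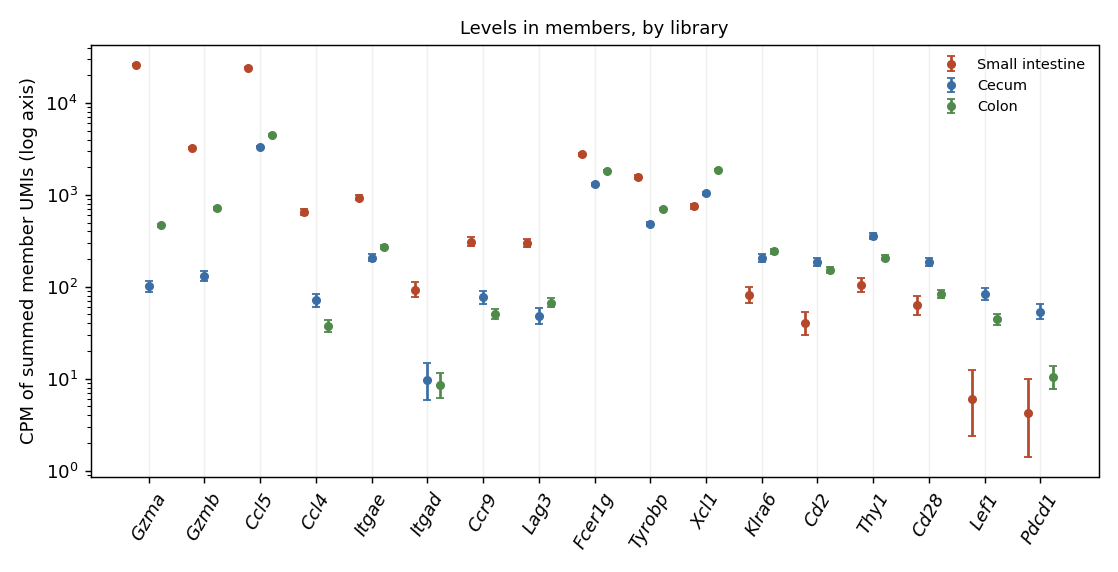
Level of 17 genes in members (CPM of summed UMIs, log vertical axis) in small intestine, cecum and colon, with 95% Poisson intervals that cover counting error only. Gzma spans 26050.2 CPM in small intestine to 102 in cecum, while Xcl1, Klra6, Cd2, Thy1, Cd28, Lef1 and Pdcd1 have their lowest point in small intestine.

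The innate-type adaptors were present in every tissue and differed less. Fcer1g, the Fc receptor gamma chain that can stand in for CD3 zeta, stood at 2754 CPM in small intestine, 1305 CPM in cecum and 1835 CPM in colon, 2.11-fold (2.01 to 2.22) higher in small intestine than in cecum and 1.5-fold higher than in colon. Tyrobp (DAP12), an adaptor of activating NK receptors, stood at 1558 CPM in small intestine, 483 CPM in cecum and 704 CPM in colon. Of the 15 tested genes of the innate-type list, 2 were higher (Itgae and Tyrobp) and 2 lower (Xcl1 and Klrk1) in small intestine than in colon. Ikzf2 (Helios), a transcription factor of thymically selected cells, was nearly level, at 1039 CPM in small intestine, 1014 CPM in cecum and 910.0 CPM in colon. Cd160, an inhibitory receptor of these cells, stood at 803 CPM in small intestine, 971 CPM in cecum and 1133 CPM in colon, and Cd69, a retention molecule, at 333 CPM in small intestine, 402 CPM in cecum and 365 CPM in colon. Ahr, a receptor needed to keep intraepithelial lymphocytes, stood at 281 CPM in small intestine, 373 CPM in cecum and 414 CPM in colon.

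NK-type receptors tended to be lower in small intestine than in colon, and were mixed against cecum. Klra6, a Ly49 family receptor, stood at 81.4 CPM in small intestine, 204 CPM in cecum and 243 CPM in colon, 2.98-fold (2.42 to 3.71) lower in small intestine than in colon. Klra7, of the same family, stood at 124 CPM in small intestine, 382 CPM in cecum and 388 CPM in colon, 3.12-fold (2.63 to 3.72) lower in small intestine than in colon. Klra5 had another order, at 249 CPM in small intestine, 79.5 CPM in cecum and 338 CPM in colon, and was 4.26-fold (3.63 to 5.02) lower in cecum than in colon. Klra genes are near-identical copies, so the split of reads among them is uncertain. Klrk1 (NKG2D) stood at 28.3 CPM in small intestine, 79 CPM in cecum and 71.2 CPM in colon and Klrd1 (CD94) at 991 CPM in small intestine, 1509 CPM in cecum and 1754 CPM in colon. Of 11 tested receptors 0 were higher and 4 lower in small intestine than in colon, with a median log2 ratio of -0.82. Against cecum, 2 of 10 were higher (Klra5 and Cd244a) and 3 lower, with a median of -0.35.

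Several genes of adaptive co-stimulation and of recirculation were lower in small intestine. Cd2, an adhesion co-receptor, stood at 40.3 CPM in small intestine, 186 CPM in cecum and 153 CPM in colon, and was 3.79-fold (2.82 to 5.21) and 4.62-fold (3.41 to 6.4) lower in small intestine than in colon and cecum. A Cd2 UMI was held by 4.31%, 16.1% and 14.1% of thinned members of small intestine, cecum and colon. In the B gate the shares were 2.87%, 22% and 22.2%, and the part of free RNA in the Cd2 ratios was not tested. Thy1, a surface glycoprotein of T cells, stood at 105 CPM in small intestine, 355 CPM in cecum and 208 CPM in colon, and Cd28, the co-stimulatory receptor, at 63.4 CPM in small intestine, 188 CPM in cecum and 83.4 CPM in colon; Cd28 was 2.26-fold (1.96 to 2.6) higher in cecum than in colon. The thinned share with a Cd28 UMI was 4.31%, 13.3% and 6.72% in members. Of the tested adaptive co-receptors 0 of 7 were higher and 2 lower in small intestine than in colon, and 0 of 8 were higher and 5 lower than in cecum. Lef1, a transcription factor of naive and memory T cells, stood at 6.00 CPM in small intestine, 84.3 CPM in cecum and 44.3 CPM in colon, 14-fold (6.67 to 35.4) lower in small intestine than in cecum. Klf2, a factor that drives egress receptors, was 5.31-fold (4.41 to 6.44) lower than in cecum, but its level was under 20% of that in B cells and it was set apart as possible free RNA. S1pr1, the egress receptor itself, had 3, 93 and 189 UMIs in small intestine, cecum and colon members. After thinning, an S1pr1 UMI was held by 0.216%, 3.79% and 3.91% of members, against 5.17%, 28.8% and 29.3% of the B gate. The part of free RNA in the S1pr1 counts was not tested. On the naive and recirculating list 0 of 8 tested genes were higher and 4 lower in small intestine than in colon, with a median log2 ratio of -1.05; against cecum, 0 of 10 were higher and 6 lower, with a median of -1.40. Of the 4 genes lower than in colon, Ly6c2, Klf2 and Klf3 were set apart as possible free RNA and Satb1, a chromatin organiser, was not.

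Checkpoint receptors split. Lag3, which binds class II molecules, stood at 301 CPM in small intestine, 47.9 CPM in cecum and 67 CPM in colon, 4.49-fold (3.85 to 5.24) higher in small intestine than in colon and 6.28-fold (5.02 to 7.93) higher than in cecum. Pdcd1 (PD-1) was highest in cecum, at 4.29 CPM in small intestine, 53.6 CPM in cecum and 10.5 CPM in colon, 12.5-fold (5.2 to 39.3) lower in small intestine than in cecum and 5.11-fold (3.63 to 7.28) higher in cecum than in colon. Its thinned share was 4.69% in cecum members and 0% in the cecum B gate. Gbp2, an interferon-induced GTPase, stood at 72.9 CPM in small intestine, 20.1 CPM in cecum and 27.7 CPM in colon, 2.63-fold (1.98 to 3.48) higher in small intestine than in colon and 3.62-fold (2.48 to 5.38) higher than in cecum. Stat2, a factor of type I interferon signalling, was 2.31-fold (1.75 to 3.04) and 2.42-fold (1.72 to 3.4) higher in small intestine than in colon and cecum. Among transcription factors, Runx1 was called higher (3.75-fold over colon, at a level under 20% of that in another cell class of its library) and the other 12 of 13 tested stayed under 2-fold against colon. Prdm1 (Blimp-1) had 57, 1 and 17 UMIs in members of small intestine, cecum and colon and was under the level limit. Genes outside the lists with high ratios over both tissues included Plek (pleckstrin, 12.8-fold over colon), Stk32c (a kinase, 11.3-fold), Runx2 (7.35-fold), Hip1 (6.12-fold), Cela1 (an elastase, 5.4-fold) and St6galnac2 (a sialyltransferase, 5.18-fold).

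Cecum and colon members had the fewest called genes of the 3 pairs. In cecum, Pdcd1, Ramp1, a partner of the CGRP receptor (3.21-fold), the kinase Sgk1 (2.9-fold), Icos (2.64-fold) and the calmodulin binder Nrgn (2.58-fold) were among the 29 genes higher than in colon; Tubb2a and Sox4 were also above 2-fold and were set apart as possible free RNA. Heat shock genes Dnajb1 and Hspa1a were 2.49-fold and 2.28-fold higher in cecum, with Hspa1a uncertain because of its copy Hspa1b; 2 of 14 tested heat shock genes were called. The 81 genes lower in cecum included Gzmb, Gzma, Klra5 and Fgl2 (3.59-fold lower), and also Smim27 (5.03-fold), the translocon subunit Sec61g (3.73-fold), the polymerase subunit Polr2l (3.14-fold), and Cox7c (3.07-fold) and Ndufa3 (2.91-fold), parts of the respiratory chain. Without the member that held most of them, cecum Gzma was 8.08-fold (6.73 to 9.78) lower than in colon. Cecum members were also the shallowest, with a median of 1818 UMIs; the part of depth in these ratios was not tested beyond thinning, under which all 72 named ratios kept their direction and 70 kept 2-fold. With members that held a gamma chain or delta V UMI left out, Sgk1, Icos, Hspa1a, Cd28 and Gzma fell below 2-fold between cecum and colon, in the direction given.

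The 6 stomach members carried 18120 UMIs in all, and no ratio was computed for them. They held 0 UMIs of Gzma, Gzmb, Itgad and Lag3, where a count of 0 allows up to 3 of 18120 UMIs, and 10 UMIs each of Fcer1g and Lef1. Mast cells were 1872 of the 3199 stomach barcodes, and their transcripts summed to 6898 CPM over 8 marker genes in them, against 766, 422 and 223 CPM in members of small intestine, cecum and colon.

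Members were then set against 3 other T cell gates of the same libraries: γδ cells, CD8αβ cells (a Cd8b1 UMI and an αβ receptor UMI, no Trdc UMI) and double-negative αβ cells (no Cd8a, Cd8b1, Cd4 or Trdc UMI). UMIs were summed over each gate and library and tested with edgeR's quasi-likelihood test with the library as a block; small intestine, cecum and colon stand in for replicates, so a call asks whether a difference is alike in the 3 tissues, and animal-to-animal spread is not measured. Across 10629 genes edgeR called 80 (0.753%) between members and γδ cells, 29 higher (0.273%) and 51 lower (0.48%) in members. Against CD8αβ cells it called 332 (3.12%), 102 higher (0.96%) and 230 lower (2.16%). Against double-negative cells it called 329 (3.1%), 99 higher (0.931%) and 230 lower (2.16%). Without the colon library, the deepest, those counts were 6 and 5, 35 and 86, and 8 and 27. Without the small intestine library, 152 genes were lower than in γδ cells and 40 higher than in CD8αβ cells; without cecum, 15 were higher and 23 lower than in γδ cells. The same members enter all 3 comparisons.

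Against γδ cells edgeR called fewer genes than against the other gates, which does not show the remaining genes to be level. Klra6 led the genes higher in members, at 81.4, 204 and 243 CPM in members of small intestine, cecum and colon, against 13.1, 79 and 48.6 CPM in the γδ gate of the same libraries (log2 fold change 2.06 ± 0.21 (SE), adjusted p = 0.0022, edgeR). Klra9 and the pseudogene Klra13-ps, whose reads may be split among near-identical copies, were called too, with log2 fold changes of 2.01 and 0.82, and with Klrb1a (0.56, an NK1.1 family receptor) made up 4 of 25 tested NK-type receptors higher and 0 lower; the list's median log2 fold change was 0.07, against 0.00 over all genes. Tcf7, the factor TCF-1 of T cell identity, stood at 136, 258 and 232 CPM in members, against 96.7, 181 and 153 CPM in the γδ gate (log2 fold change 0.51 ± 0.10 (SE), adjusted p = 0.00943, edgeR). Ltb, lymphotoxin beta, and Nfkb1 were higher by 0.38 and 0.50 on the log2 scale. Without colon, 2 of the 19 genes singled out in this comparison stayed called, Klra6 and Tesc. With only members and γδ cells in the fit, Klra6 was the 1 of 19 that lost its call, at a log2 fold change of 2.07. Without cecum 5 of the 19 stayed called, and Tcf7, Ltb, Nfkb1, Tesc and Itgae were among those that lost their calls. With members that held a gamma chain or delta V UMI left out 9 stayed called, and Klrb1a, Nfkb1, Dtx1, Slamf7 and Itgae did not; by DESeq2 7 did, and Klrb1a, Tcf7, Ltb, Slamf7 and Itgae did not. Lower in members were the gamma constant genes Tcrg-C1 (-1.86) and Tcrg-C3 (-1.92), and 6 of 10 tested genes of the γδ receptor and lineage list; this comparison was defined by Trdc, and these transcripts belong to the same receptor. Tesc (tescalcin), a calcium-binding protein, stood at 118, 73.3 and 57.7 CPM in members, against 174, 152 and 139 CPM in the γδ gate (log2 fold change -0.99 ± 0.13 (SE), adjusted p = 1.12e-04, edgeR). Dtx1, a regulator of Notch signalling, had a log2 fold change of -0.68 and Slamf7, a SLAM family receptor, one of -0.64. Signalling genes Cd247 (CD3 zeta, -0.56) and Lat (-0.45), the granule protein Nkg7 (-0.36) and the integrin chains Itgae (-0.40) and Itgb7 (-0.35) were lower as well.

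Gzma did not pass this test, and its values are uneven across tissues: 26050.2, 102 and 468 CPM in members of small intestine, cecum and colon, against 29616, 3725 and 5715 CPM in the γδ gate of the same libraries (log2 fold change -3.26 ± 1.27 (SE), adjusted p = 0.602, edgeR). In cecum and colon the γδ gate held over 10 times the Gzma level of members, while in small intestine the 2 gates were close. After thinning, 13.4% and 23.4% of γδ gate cells in cecum and colon held a UMI, against 0.598% and 2.21% of members. The γδ gate did not require Cd8a. A Cd8a UMI was held by 71.2%, 20.2% and 38.2% of its thinned cells in small intestine, cecum and colon. The shares of thinned members were 83.4%, 73.2% and 72.1%. The part of this difference in the Gzma contrast was not tested. Gzmb and Ccl5 did not pass the test either, at 3234, 132 and 717 CPM in members, against 3975, 839.6 and 2786 CPM in the γδ gate for Gzmb and 24230.2, 3359.5 and 4479.9 CPM in members, against 31398, 11697 and 13170.3 CPM in the γδ gate for Ccl5. Fcer1g and Tyrobp were near level, with log2 fold changes of 0.09 ± 0.22 and -0.14 ± 0.28 (SE), and neither passed; that does not show them to be equal.

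Against CD8αβ cells members were higher in receptors of the CD200R family and in natural intraepithelial genes, and lower in genes of naive and recirculating T cells. Cd200r2 stood at 198, 52.7 and 67 CPM in members of small intestine, cecum and colon, against 26.9, 3.29 and 13.3 CPM in the CD8αβ gate of the same libraries (log2 fold change 2.72 ± 0.33 (SE), adjusted p = 1.45e-05, edgeR), and Cd200r4, another CD200 receptor family gene, was higher by 1.38. Xcl1 stood at 748, 1036 and 1883 CPM in members, against 390.1, 562 and 837 CPM in the CD8αβ gate (log2 fold change 1.0 ± 0.08 (SE), adjusted p = 2.68e-10, edgeR). Of 15 tested genes of the innate-type list 6 were higher (Xcl1, Hic1, Cd96, Cd160, Cd244a and Itgae) and Cd69 was lower; the list's median was 0.67, against 0.02 over all genes. Itgad was higher by 2.23 on the log2 scale, Tnfrsf9 (4-1BB) by 1.16, Tox by 0.48 and Zap70, the receptor-proximal kinase, by 0.35. Fcer1g missed the threshold, at 2754, 1305 and 1835 CPM in members, against 686, 756 and 907 CPM in the CD8αβ gate (log2 fold change 1.23 ± 0.25 (SE), adjusted p = 0.0639, edgeR). Gcnt1, a glycosyltransferase, Capn3, a calpain protease, and Adrb1, the beta-1 adrenergic receptor, were higher by 1.56, 1.30 and 1.46. Of 27 genes singled out in this comparison 18 stayed called without small intestine and 19 without colon; Itgae, Cd160 and Gcnt1 were lost in both cases, and Ccr7, S1pr1, Itgad and Adrb1 were lost without small intestine. With members that held a gamma chain or delta V UMI left out 19 stayed called, and Itgae, Itgad, Gcnt1 and Cd69 were among those that did not.

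On the naive and recirculating list 9 of 20 tested genes were lower in members than in CD8αβ cells and 0 higher, with a median of -1.92. Ccr7, the lymph node homing receptor, stood at 5.14, 18.2 and 6.09 CPM in members, against 53.8, 181 and 177 CPM in the CD8αβ gate (log2 fold change -4.05 ± 0.39 (SE), adjusted p = 2.54e-04, edgeR). Dapl1 had 0, 2.87 and 0.63 CPM in members, against 10.1, 49.3 and 107 CPM in the CD8αβ gate, a log2 fold change of -5.89. The log2 fold change was -2.30 for S1pr1. Themis, a thymocyte signalling protein, had a log2 fold change of -1.53. Cd5 (-2.22), Cd28 (-1.66) and Lef1 (-1.85) had lower fitted values in members, with adjusted p of 0.0708, 0.209 and 0.0957 in edgeR, and did not pass. Some of the lowest fold changes belonged to genes of plasmacytoid dendritic cells: Siglech, a lectin of those cells, had 27.4, 0 and 4.62 CPM in members, against 498, 72.3 and 131 CPM in the CD8αβ gate, and Ly6d, Cox6a2, Pld4 and Ctsh were called with it. A Siglech UMI was found in 8 of 99 CD8αβ barcodes of small intestine, 1 of 142 in cecum and 2 of 150 in colon, and in 4, 0 and 1 members. With every barcode that held a Siglech UMI left out, a setting chosen after these values were seen, 141 genes were lower in place of 230, Ly6d was 0.09 (not called) in place of -4.84, 8 of the 9 naive genes stayed lower, and Cd200r2, Dapl1, Igfbp4 and Ccr7 stayed called. Itgae, Gcnt1 and Il2rb lost their calls there, with log2 fold changes of 0.33 for Itgae and 1.42 for Gcnt1. The small intestine CD8αβ gate also held plasma cell transcripts at 9632 CPM over the marker list, against 435 CPM in members; the part of these barcodes in the other calls was not tested.

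Against double-negative αβ cells, members were higher in the same CD200 receptor genes and lower in immediate early, NK-type and recirculation genes. The double-negative gate may hold CD8αα cells whose Cd8a was not captured. Its median depth was 2151, 1686.5 and 2659 UMIs in small intestine, cecum and colon, against 2264, 1818 and 3145 in members. The part of either in these calls was not tested. Cd200r2 stood at 198, 52.7 and 67 CPM in members, against 47.7, 18.1 and 20.8 CPM in the double-negative gate (log2 fold change 1.72 ± 0.18 (SE), adjusted p = 3.73e-06, edgeR), Cd200r4 was higher by 1.0 and Cd200r1 by 0.90. Itgae stood at 931, 208 and 273 CPM in members, against 604, 137 and 142 CPM in the double-negative gate (log2 fold change 0.71 ± 0.09 (SE), adjusted p = 6.76e-06, edgeR), and Xcl1 and Tox were higher by 0.43 and 0.47. Of 29 tested immediate early genes 18 were lower and 0 higher, with a median of -0.59, against 0.01 over all genes. Nr4a1, an orphan receptor induced by T cell receptor signals, stood at 137, 161 and 111 CPM in members, against 236, 261 and 219 CPM in the double-negative gate (log2 fold change -0.86 ± 0.11 (SE), adjusted p = 4.21e-05, edgeR); Egr1, Junb and Fos had log2 fold changes of -0.86, -0.47 and -0.38. Of 16 tested heat shock genes 5 were lower and 0 higher, among them Hspa1a (-0.80) and Dnajb1 (-0.87). Of 25 tested NK-type receptors 8 were lower and 0 higher, including Klrk1, at 28.3, 79 and 71.2 CPM in members, against 126, 252 and 326 CPM in the double-negative gate, and the NK receptor Ncr1 (-3.57). Il18r1, the receptor for interleukin 18, stood at 4.29, 24.4 and 22 CPM in members, against 39.3, 76.8 and 135 CPM in the double-negative gate (log2 fold change -2.29 ± 0.28 (SE), adjusted p = 0.00135, edgeR), and S100a4 and S1pr1 were also called, with log2 fold changes of -1.97 and -1.71. Of 17 tested homing receptors 7 were lower (S1pr1, Ccr7, Cxcr3, Cxcr4, Ccr2, Gpr183 and S1pr4) and Gpr55 was higher. When members with a gamma chain or delta V UMI were left out, 15 genes were higher and 44 lower; 12 of 23 genes singled out lost their calls, among them Itgae, Cd200r1, Xcl1, Klrk1, Il18r1, S100a4 and S1pr1. The immediate early list then had 7 lower, the NK-type list 1, the homing list 1 and the heat shock list 0. Without colon, the immediate early list had 9 lower and the NK-type list 0. Of 23 genes singled out, 11 stayed called without colon, and Il18r1, Klrk1, S100a4 and Xcl1 were among those that did not; without small intestine S1pr1 was lost, and without cecum Klrk1.

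**Figure D3:**
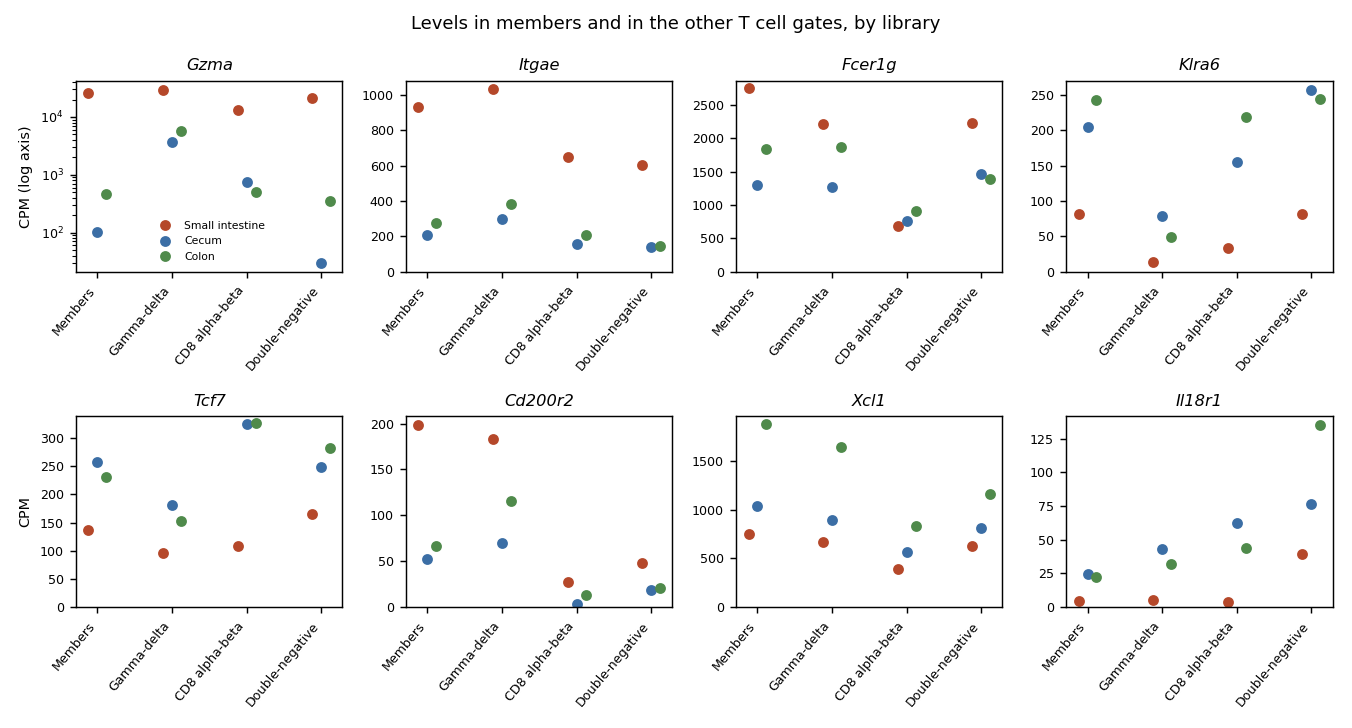
Level (CPM of summed UMIs; log axis for Gzma, linear from 0 for the others) of 8 genes in members, at the left of each panel, and in the γδ, CD8αβ and double-negative gates, 1 point for each of small intestine, cecum and colon. Klra6 is 81.4, 204 and 243 CPM in members against 13.1, 79.0 and 48.6 CPM in the γδ gate, and Gzma in cecum and colon is highest in the γδ gate.

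Members differed among themselves in what was detected beside Fcer1g, with wider gaps for Thy1 and Tyrobp in small intestine than in cecum or colon. After thinning, 376 of 464 small intestine members held an Fcer1g UMI and 88 did not. Thy1 was seen in 2.39% of those with an Fcer1g UMI and 30.7% of those without; Cd5, the negative regulator of receptor signals, in 0.532% and 12.5%; Cd28 in 1.33% and 17%; and Il7r, the interleukin 7 receptor, in 1.86% and 12.5%. Tyrobp ran the other way, with 60.9% and 13.6%, as did the Klra genes together, with 29.5% and 10.2%, and Gzmb, with 58.5% and 35.2%. Gzma, Itgae and Trac were close in both sets, with Gzma in 63% and 56.8% and Trac in 58.2% and 59.1%. In cecum and colon the contrasts were narrower: Thy1 was seen in 28% of cecum members with an Fcer1g UMI and 30.8% of those without, and in 15.8% and 22.1% in colon. Tyrobp in cecum was at 35.2% and 19.2%, and in colon at 41.8% and 24.6%. A cell without an Fcer1g UMI need not lack the transcript, and cells of 1 library are not replicates, so these shares are a description with no test. In the B gates of small intestine, cecum and colon, Tyrobp was seen in 9.2%, 9.16% and 7.19% of barcodes and Thy1 in 0.575%, 0% and 0%. The thinned CD8αβ gate of small intestine held Fcer1g in 18.2% of its cells and Tyrobp in 15.2%. It held Thy1 in 37.4%, Cd5 in 10.1%, Cd28 in 21.2% and Gzmb in 50.5%. How many members without an Fcer1g UMI are CD8αβ cells whose Cd8b1 was not captured was not tested.

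**Figure D4:**
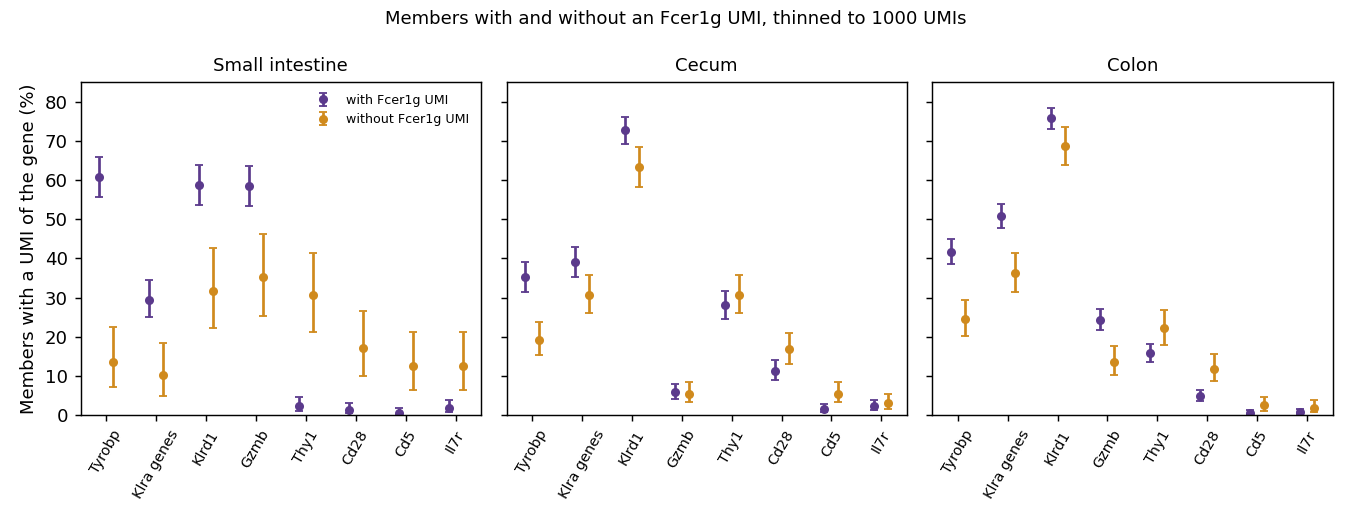
Share of members with a UMI of each gene (percent, vertical axis, with 95% binomial intervals) among those with an Fcer1g UMI (purple) and without one (orange), thinned to 1000 UMIs, in each library. The gap for Thy1 is 2.39% against 30.7% in small intestine and 28% against 30.8% in cecum.

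Transcripts of other cell classes were present in the members. Summed over marker lists, B cell genes stood at 828, 527 and 516 CPM in members of small intestine, cecum and colon, myeloid genes at 68.6, 15.3 and 37.2, mast cell genes at 766, 422 and 223, plasma cell genes at 435, 210.2 and 176 and epithelial genes at 222, 147 and 183. UMIs were found for 6, 6 and 7 of the 8 B cell genes and for 8, 5 and 4 of the 8 mast cell genes. Plasmacytoid dendritic genes, which include Ccr9 and Runx2, summed to 679, 279.6 and 300.0 CPM. Each of these sums was highest in small intestine members, beside the ratios given above; their part in those ratios was not tested. Genes of helper T cells summed to 115, 163 and 80.8 CPM, those of conventional CD8 T cells to 109.7, 329.9 and 151 CPM, those of NK cells or ILC1 to 2469, 1678 and 2828 CPM and those of ILC2 to 120.0, 118 and 94.1 CPM. Cell barcodes shared between libraries numbered 23, of which 10 held a member in at least 1 library and 1 held members in 2.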

How the data were processed

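Per the labels, live CD45+ cells sorted as CD45.2+ were run on the 10x Genomics 3′ platform, and the submitters' processing notes name Cell Ranger, Seurat 3.0.0 and the GRCm38 and mm10 builds; whether counting used strand is not given in the sources used here. The deposited files hold counts, whole-number UMI counts per gene and barcode, as the authors made them, with no further scaling. Barcodes were used as deposited, no doublet caller was run, and 0 columns of per-sample values were left unused.

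UMIs were summed over the members of each library and given as CPM with exact Poisson intervals; ratios have exact conditional binomial intervals and shares Clopper-Pearson intervals, all at 95%. Thinning drew 1000 UMIs from each barcode (seed 1) and left out 8 shallower cecum members. Genes at 50 CPM in either library with 20 UMIs in all were compared between tissues. Summed counts of 4 gates in 3 libraries were fitted with edgeR 4.0.16 in R 4.3.3 (quasi-likelihood test, robust, TMM, filterByExpr, library as block, Benjamini-Hochberg over all genes, threshold 0.05), with DESeq2 1.42.0 as an alternative; the fits were checked on simulated data. Tables used Python 3.11.15, numpy 2.4.6, scipy 1.17.1 and pandas 2.3.3. Genes used by any gate were left out of the counts of calls.

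Between tissues, named genes were the 12 highest and 12 lowest ratios, passing over genes that rest on 1 cell or lie under 20% of their level in another cell class. Between gates, they were the 10 highest and 10 lowest called fold changes that went 1 way in all 3 libraries. The limits on 1 cell and on other cell classes were not applied between gates. Members of the gene lists were named beside them. Genes of the lists described outside this rule were chosen after their values were seen. The members and lists were chosen with earlier results of these data known. Alternatives were thinning, other gates, depth limits, normalization, filters, library block and leaving out each library. Zfp683 was not analysed here, and some members of the gene lists are not reported here. Promoter sequences are from RefSeq on GRCm38.p6, and 13663 gene symbols were listed in all 3 intestinal libraries.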

Additional observations from a re-analysis of the deposited data

Results flagged for a closer look

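Gzma differed in direction between tissues when members were set against the CD8αβ gate. In small intestine the log2 ratio of members over CD8αβ cells was 1.01, and in cecum it was -2.86, where 7 of 1011 members held a Gzma UMI. The difference between these ratios was not tested, since each tissue has 1 library.

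Hist1h4d, a replication-dependent histone H4 gene, also differed in direction in that comparison, with a log2 ratio of members over CD8αβ cells of -1.76 in small intestine and 2.89 in cecum. This difference was not tested either. The CD8αβ gate held 99 barcodes in small intestine and 142 in cecum. These ratios have no interval, and a count of 0 was set to 3 UMIs in them.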

How the results depend on the processing

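The shares of CD3 barcodes moved with the gate. For small intestine, cecum and colon they were 24.6, 22.6 and 32.4% after thinning to 1000 UMIs, 15, 23.6 and 37.4% with a Trac UMI required, 7.2, 15.8 and 9.73% with no gamma chain or delta V UMI, and 16.2, 16.7 and 32.3% with at least 2 Cd8a UMIs. Between tissues, all 72 named ratios kept their direction under the 13 settings tried; 2 fell below 2-fold after thinning (Snhg6 and Hist1h4d) and 5 with no gamma chain or delta V UMI. Counts moved by over 1.5 times as follows. After thinning, 174 genes were lower in small intestine than in colon, 236 lower than in cecum, and 44 higher in cecum than in colon. With no gamma chain or delta V UMI, 274 were higher and 202 lower in small intestine than in colon and 241 lower than in cecum. With no limit on the level the counts were 2311 higher and 808 lower for small intestine over colon, 1663 and 1061 for small intestine over cecum, and 1239 and 658 for cecum over colon. At 1.5-fold they were 550 and 555, 572 and 622, and 171 and 232.

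Against γδ cells, 12 genes were higher by DESeq2, 47 higher and 102 lower with no filter, 2 and 7 with no library block, 79 and 169 with only those populations in the fit, 30 lower after thinning, and 32 lower with no gamma chain or delta V UMI. Against CD8αβ cells, 188 were higher with no filter, 0 higher and 15 lower with no library block, 73 lower after thinning, 54 higher and 115 lower with no gamma chain or delta V UMI, and 141 lower with no Siglech UMI, where the log2 fold change of Ly6d was 0.0863 in place of a negative one. Against double-negative cells, 41 were higher by DESeq2, 154 higher with no filter, 0 higher and 0 lower with no library block, 60 higher with stomach added, 60 higher and 139 lower after thinning, and 15 and 44 with no gamma chain or delta V UMI. Leaving out 1 library at a time gave 6 to 43 higher and 5 to 152 lower against γδ cells, 35 to 99 higher and 86 to 188 lower against CD8αβ cells, and 8 to 145 higher and 27 to 303 lower against double-negative cells. The cause of these changes was not tested. The library block sets each gate against the others within 1 library. No paired analysis was possible between tissues because each has 1 library. Depth limits genes under 50 CPM, and 6 members limit stomach.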

Other observations

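Receptor V segments were captured in few members, as 3′ libraries seldom reach them. Trbv UMIs numbered 24, 39 and 207 in small intestine, cecum and colon, held by 23, 37 and 180 members. The share of Trbv12-2 among them was 45.8, 35.9 and 22.2% in those libraries, from 11, 12 and 40 members, so no single cell carried the share. In the γδ gate the same segment held 29.8% of 47, 33.3% of 12 and 17.9% of 84 Trbv UMIs. In the double-negative gate it held 0% of 8, 25.6% of 86 and 21.8% of 101; with so few UMIs no contrast is read from these shares. Animals and clones cannot be told apart here.

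Y-linked Ddx3y had 356 UMIs in small intestine members, 467 in cecum members, 912 in colon members and 5 in stomach members, while Xist had 6, 0, 2 and 0. Epcam, an epithelial adhesion molecule, was seen in 12.7, 13 and 13.3% of thinned small intestine, cecum and colon members, against 4.02, 0.524 and 0.599% of the B gate. The other T cell gates held it too, with 10.6, 10.3 and 9.75% in the γδ gate. The shares were 5.05, 9.93 and 7.38% in the CD8αβ gate and 7.33, 11.5 and 9.68% in the double-negative gate.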
